A study of Mus musculus with 16 samples.

Results

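The genes encoding the receptor chains of the IL-2 cytokine family were followed in repetitively activated TCF1+CD8+ T cells. The group was set by name, as the 8 genes *Il2ra*, *Il2rb*, *Il2rg*, *Il7r*, *Il15ra*, *Il4ra*, *Il21r* and *Il9r*, and all 8 were found among the 54532 genes of the count table. RNA-seq was performed on 16 samples, 4 in each of 4 groups. The cells were naive CD8+ T cells from the spleens of C57BL/6J mice, brought to a TCF1+ state in culture within 4 days, and were exposed to 100 ng/mL PGE2 or left without it for 1 h. For another 4 h, every group received low-dose IL-2 at 85 U/mL, and the stimulated groups also received anti-CD3/CD28 beads, 1 for each cell. The 4 groups were therefore unstimulated untreated (IL-2 alone), unstimulated with PGE2, stimulated untreated (IL-2 and beads) and stimulated with PGE2, and no group without IL-2 was among them. The comparisons ask how T cell receptor stimulation and PGE2 each change the transcripts of these receptors.

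IL-2, IL-4, IL-7, IL-9, IL-15 and IL-21 signal through receptors that contain the common gamma chain, encoded by *Il2rg*, which carries the kinase JAK3 into the receptor complex. Each cytokine adds chains of its own, and IL-2 and IL-15 share the beta chain encoded by *Il2rb*. *Il2ra* (CD25) and *Il15ra* encode alpha chains that bind IL-2 or IL-15 but have short cytoplasmic tails. In CD8+ T cells, IL-7 supports survival of naive and memory cells, IL-2 drives expansion and effector differentiation, and *Il2ra* is a classical activation gene.

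Receptor chains of the haematopoietin class share a stretch next to the membrane that reads tryptophan, serine, any residue, tryptophan, serine. It is shown because it separates the chains into 2 kinds, those with the stretch and those without it. The coding bases come from the GENCODE M21 transcripts on GRCm38, 5′ to 3′ on the coding strand, and capitals mark the tryptophan codons.
Il2rb: TGGagtcccTGGagc
Il2rg: TGGagtaaaTGGagc
Il7r: TGGagcgagTGGagt
Il4ra: TGGagtgagTGGagt
Il21r: TGGagtgagTGGagt
Il9r: TGGagtgagTGGagc
The stretch lies in exon 7 of 10 of *Il2rb* (chr15:78485763-78485777, minus strand), exon 5 of 8 of *Il2rg* (chrX:101266215-101266229, minus), and exon 5 of 8 of *Il7r* (chr15:9511151-9511165, minus). It lies in exon 7 of 11 of *Il4ra* (chr7:125571554-125571568, plus), exon 6 of 9 of *Il21r* (chr7:125628998-125629012, plus) and exon 6 of 9 of *Il9r* (chr11:32193211-32193225, minus). *Il4ra* and *Il21r*, which are neighbours on chromosome 7, have identical bases there. The 268 residues encoded by *Il2ra* and the 263 residues encoded by *Il15ra* do not contain the stretch.

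*Il2ra* (chr2:11642807-11693193) and *Il15ra* (chr2:11705290-11734317) lie on the same strand with 12.1 kb and no annotated gene between them, and *Il4ra* (chr7:125552120-125579474) and *Il21r* (chr7:125603429-125633570) lie 24 kb apart in the same way. *Il2rb* (chr15:78479256-78495271), *Il7r* (chr15:9505788-9530176), *Il2rg* (chrX:101264378-101268255) and *Il9r* (chr11:32187541-32200279) are on the minus strand and have no other receptor gene of the family beside them. In *Il2rg*, 30.5% of the exon bases also belong to Gm20489, a gene model on the same strand that had at most 2 counts in a sample, and in *Il4ra* 9.51% are shared with the antisense gene Gm44876, which also had at most 2. How the authors' counting treated shared bases and whether it used the strand is not given in the sources used here, so the levels of both genes are uncertain.

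RefSeq promoter windows on GRCm38.p6, from 250 bases before the start site to 50 after it, were found for 7 of the 8 genes. The bases upstream of the annotated gene are shown for the neighbours *Il2ra* and *Il15ra*, which moved together on stimulation, and for *Il2rg*, the shared chain. Capitals mark GGAAA, the core of sites for the calcium-regulated factor NFAT, on either strand (TTTCC on the strand shown), and each line reads 5′ to 3′ on the strand of the gene.
Il2ra (chr2:11642542-11642791, plus): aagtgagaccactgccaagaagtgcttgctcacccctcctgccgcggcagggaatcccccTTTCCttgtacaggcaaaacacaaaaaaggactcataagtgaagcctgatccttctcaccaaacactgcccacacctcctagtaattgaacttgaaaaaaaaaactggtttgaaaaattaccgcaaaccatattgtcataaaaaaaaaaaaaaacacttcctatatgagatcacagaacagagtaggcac
Il15ra (chr2:11705043-11705289, plus): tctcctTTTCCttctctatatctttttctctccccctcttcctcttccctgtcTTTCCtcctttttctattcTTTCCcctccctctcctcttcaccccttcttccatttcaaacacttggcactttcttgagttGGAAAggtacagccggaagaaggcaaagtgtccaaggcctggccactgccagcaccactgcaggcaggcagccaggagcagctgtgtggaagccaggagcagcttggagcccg
Il2rg (chrX:101268256-101268505, minus): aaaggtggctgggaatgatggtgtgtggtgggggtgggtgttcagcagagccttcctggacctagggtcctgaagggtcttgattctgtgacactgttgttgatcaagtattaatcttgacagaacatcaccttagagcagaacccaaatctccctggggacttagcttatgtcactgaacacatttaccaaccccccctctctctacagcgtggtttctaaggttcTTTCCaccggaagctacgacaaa
The whole windows held 1 match in *Il2ra*, 5 in the first window of *Il15ra* and 0 in its second, 2 in *Il2rg*, 1 in *Il7r*, 2 in *Il4ra* and 0 in *Il21r* and *Il9r*. GGAAA occurred in 61.3% of all 32851 promoter windows. The STAT motif TTCNNNGAA occurred only in the *Il7r* window, 142 bases before the start site, and in 8.3% of all windows. The full cAMP response element TGACGTCA occurred in none of the receptor windows and in 1.79% of all windows. Both strands were searched, the motifs share no bases in these windows, and a match describes letters only.

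Sequencing depth was 22678254 to 42950763 counts per sample, of which the 8 receptor genes took 0.271% to 0.346%. All 8 markers of CD8 T cells were detected. They summed to 3800 to 5480 CPM (counts scaled to a common library total) in unstimulated and 3344 to 3886 CPM in stimulated samples. Among markers of other cells, 2 of 3 genes of the CD4 and regulatory T cell list reached a mean of 1 CPM. These were *Foxp3* (3.09 to 9.07 CPM) and *Zbtb7b* (10.3 to 34.4 CPM), while *Cd4* had a median of 0.106 CPM. The list summed to 26.9 to 40.1 CPM in unstimulated and 14.5 to 26.6 CPM in stimulated samples. In the B cell list 2 of 5 genes reached a mean of 1 CPM (*Cd79a* and *Cd79b*). That list summed to 10.1 to 21.0 CPM in unstimulated and 4.47 to 11.7 CPM in stimulated samples. The lists of myeloid, NK, erythroid and mast cells stayed at or below 2.32 CPM in every sample. The CD8 list and both detected lists of other lymphocytes thus ranged lower in stimulated samples, where *Il7r* and *Il2rb* were lower as well. The part of other cells in the results was not tested. In bulk RNA, fewer cells that express a gene and less RNA per cell cannot be told apart.

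In unstimulated untreated cells the beta chain led the family. Per gene length, *Il2rb* stood at 299.8 ± 5.46 FPKM (mean ± SD, n = 4, as for all levels here), followed by *Il2rg* at 119 ± 3.66 and *Il2ra* at 76.7 ± 19.4 FPKM. *Il4ra*, which encodes the alpha chain for IL-4 and IL-13, was at 49.6 ± 6.22 FPKM and *Il21r*, the private chain for IL-21, at 48.1 ± 3.35 FPKM, with overlapping samples. *Il7r* was at 33.6 ± 1.82, *Il15ra* at 2.33 ± 0.393 and *Il9r* at 0.0673 ± 0.0470 FPKM. *Il9r*, the receptor for IL-9, had 1 to 28 counts in any sample and lay last in all groups.

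Stimulation put *Il2ra* first. It reached 263 ± 9.67 FPKM in stimulated untreated cells, above every sample of *Il2rb* (186 ± 15.1) and *Il2rg* (153 ± 15.97), which overlapped each other. *Il7r* (11.7 ± 2.46) and *Il15ra* (10.96 ± 1.82 FPKM) then overlapped near the bottom of the order. With PGE2 as well, *Il2ra* (229.8 ± 40.6) and *Il2rb* (225 ± 2.85 FPKM) overlapped at the top, and *Il7r* (20.9 ± 5.07) lay above *Il15ra* (10.1 ± 1.60 FPKM) in every sample. In unstimulated cells with PGE2 the order opened with *Il2rb* (328 ± 20.2) and *Il2rg* (104 ± 3.79), and *Il4ra* (62.8 ± 10.4), *Il2ra* (52.0 ± 8.84), *Il21r* (45.2 ± 2.98) and *Il7r* (39.8 ± 1.25 FPKM) formed a run in which neighbours overlapped.

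**Figure D1:**
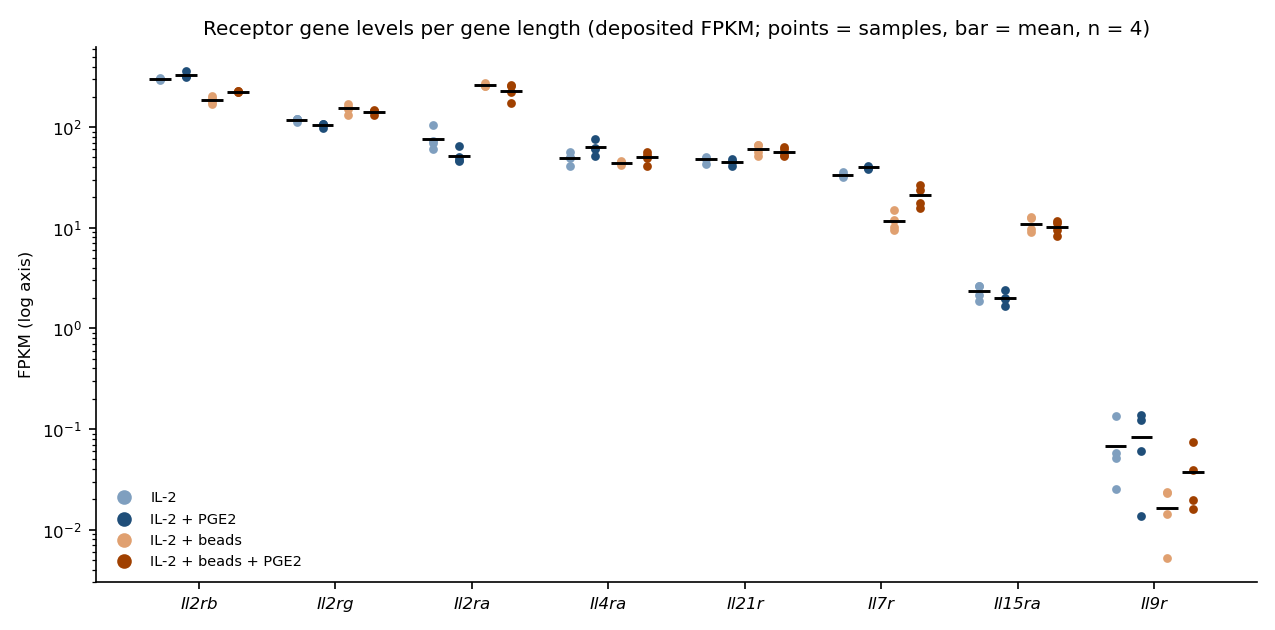
Levels of the 8 receptor genes in FPKM (log axis) for each sample, with the 4 groups side by side and a bar at each mean. *Il2rb* leads in both unstimulated groups, *Il2ra* reaches 263 FPKM with IL-2 and beads, and *Il9r* stays below all others.

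As shares of the summed FPKM of the family, which was 629 ± 7.05 in unstimulated and 729 ± 11.8 in stimulated untreated cells, *Il2ra* went from 12.2% ± 2.94 to 36.1% ± 1.08 and *Il2rb* from 47.7% ± 1.24 to 25.4% ± 1.66. The ratio of *Il2ra* to *Il2rb* was 0.257 ± 0.0698 in unstimulated untreated cells and 0.159 ± 0.0327 with PGE2. Those samples overlapped (untreated from 0.201, PGE2 up to 0.205). In stimulated cells it was 1.42 ± 0.0992 without and 1.02 ± 0.180 with PGE2, and no sample with PGE2 reached the lowest sample without. The ratio of *Il2rb* to *Il2rg*, the signalling pair for IL-2 and IL-15, was 2.53 ± 0.0356 and 3.15 ± 0.153 in unstimulated cells without and with PGE2. It was 1.23 ± 0.231 and 1.59 ± 0.0859 in stimulated cells. The stimulated samples overlapped in this ratio (untreated up to 1.53, PGE2 from 1.51), and the unstimulated samples did not. These ratios are descriptions of transcripts and were not tested.

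Stimulation without PGE2 raised the alpha chains of the IL-2 and IL-15 receptors and lowered *Il7r* and *Il2rb*. Of the 7 genes that passed the filter on low counts, 4 rose and 2 fell at an adjusted p below 0.05 in edgeR, and 3 of these also changed at least 2-fold (called DEGs): *Il2ra*, *Il15ra* and *Il7r*. Of all 14205 genes tested, 31.7% were higher, 34.8% lower and 23.2% DEGs, so that changes of this kind were widespread. The median log2 fold change was 0.31 over the 7 receptor genes and −0.03 over all genes. *Il9r*, at 3 to 25 counts per sample without and 1 to 3 with beads, did not pass the filter in this comparison. The settings that tested it without that filter gave it a log2 fold change of −2.08 with DESeq2 (SE 0.80, adjusted p = 0.0214), −2.13 in edgeR without the filter (SE 0.637, adjusted p = 0.00573) and −2.12 in the edgeR fit of all 16 samples (SE 0.741, adjusted p = 0.0181). Each of these 3 counts it as a DEG that fell, which makes 4 receptor DEGs, while limma on log2(FPKM + 1) did not (adjusted p = 0.113).

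*Il2ra* stood at 362, 431, 419.9 and 631 CPM in the 4 unstimulated untreated samples (replicates 1 to 4) and at 1504, 1572, 1548 and 1691 CPM in the stimulated ones. The groups lay far apart, and the log2 fold change was 1.76 (SE 0.143, edgeR adjusted p = 3.44e-07), a 3.39-fold rise. *Il15ra* stood at 8.65, 12.3, 10.1 and 12.5 CPM without and at 56.4, 58.7, 45.8 and 43.7 CPM with beads. It had the largest log2 fold change of the family, 2.22 (SE 0.141, adjusted p = 5.72e-08), from a low base of 196 to 414 counts.

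*Il7r*, whose loss from the surface is a known feature of activated T cells, stood at 176, 163, 165 and 156 CPM without and at 45.4, 49.8, 59.9 and 75.3 CPM with beads. Each stimulated sample was below each unstimulated one, and the log2 fold change was −1.54 (SE 0.123, adjusted p = 3.08e-07). *Il2rb* fell from 1354, 1369.8, 1363 and 1321 CPM to 742, 793, 885 and 931 CPM, by 0.71 on the log2 scale (SE 0.0772, adjusted p = 4.43e-06), also without overlap. Such a lack of overlap was common, with 5 of the 7 receptor genes tested and 8749 of all 14205 genes.

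The remaining chains changed by less. *Il2rg* rose by 0.35 on the log2 scale (SE 0.0810, adjusted p = 0.00181), from 302, 303, 301 and 285 CPM to 418, 390.3, 389 and 339 CPM, with no overlap. *Il21r* stood at 151, 169, 174 and 179 CPM without and at 176, 195, 237 and 237 CPM with beads, which overlap, and rose by 0.31 (SE 0.0968, adjusted p = 0.0122). With upper-quartile scaling the adjusted p of *Il21r* was 0.0977, under which the median of all genes was −0.13. *Il4ra* stood at 355, 313, 321 and 262 CPM without and at 285, 272, 287 and 270.2 CPM with beads. Its log2 fold change of −0.18 (SE 0.0885) did not pass the test (adjusted p = 0.0913), but passed with the replicate number as a block (adjusted p = 0.0262), with upper-quartile scaling (log2 fold change −0.27, adjusted p = 0.00852) and without replicate 4 of the unstimulated untreated group (adjusted p = 0.00742).

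**Figure D2:**
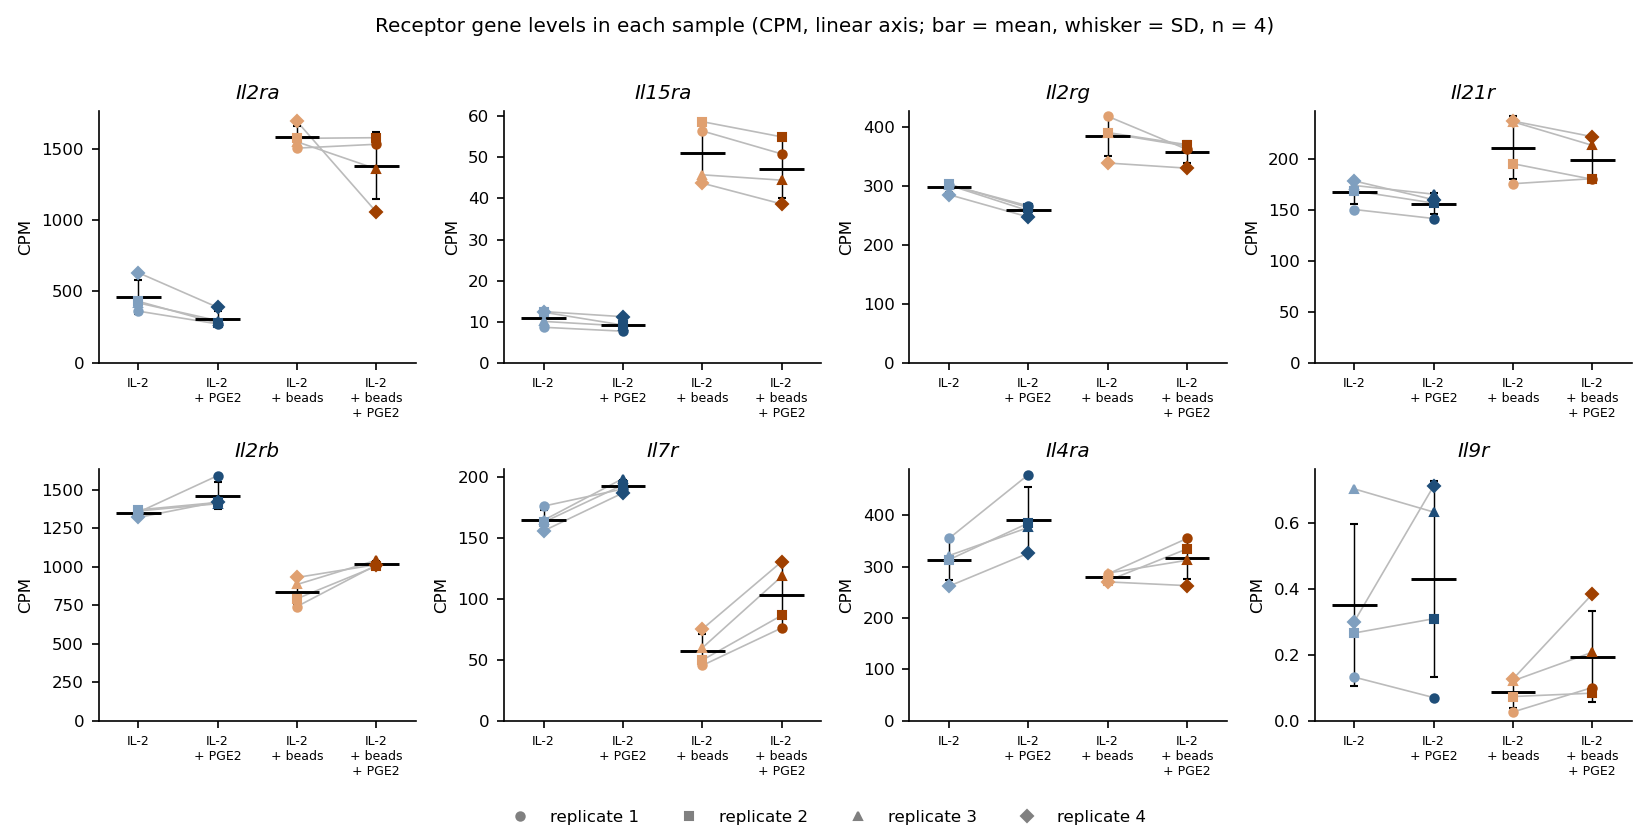
CPM of the 8 receptor genes in each of the 16 samples (linear axes from 0; bars are means, whiskers SD, n = 4), with samples of the same replicate number joined between untreated and PGE2. *Il2ra* and *Il15ra* are high with beads, *Il7r* and *Il2rb* low, and the lines of *Il7r* rise in all 4 numbers in both states.

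Stimulation in the presence of PGE2 had the same receptors at its ends. Of 8 receptor genes tested, 4 rose and 2 fell, and 2 were DEGs, *Il2ra* and *Il15ra*. Of all 14507 genes tested, 32.5% rose, 31.7% fell and 22.1% were DEGs. The median log2 fold change was 0.04 over the receptor genes and 0.00 over all genes. *Il2ra* rose by 2.18 on the log2 scale (SE 0.158, adjusted p = 1.94e-06) and *Il15ra* by 2.36 (SE 0.149, adjusted p = 1.25e-06). *Il7r* fell by 0.89 (SE 0.142, adjusted p = 0.000245), a 1.86-fold decrease that stays under the fold change of a DEG, against a 2.91-fold decrease without PGE2. *Il2rb* fell by 0.51 (SE 0.0601, adjusted p = 3.19e-05). *Il2rg* rose by 0.48 (SE 0.0674, adjusted p = 9.76e-05) and *Il21r* by 0.36 (SE 0.0885, adjusted p = 0.00404), which upper-quartile scaling moved to an adjusted p of 0.0675. *Il4ra* had a log2 fold change of −0.29 (SE 0.123, adjusted p = 0.0602), and its adjusted p was 0.0247 without replicate 4 of the unstimulated group with PGE2, and 0.0330 and 0.0495 without replicates 1 and 2 of the stimulated group with PGE2. It also passed with upper-quartile scaling (log2 fold change −0.42, adjusted p = 0.00484), without the filter on low counts (adjusted p = 0.0188) and in 1 fit of all 16 samples (adjusted p = 0.0233). *Il9r* went from 2 to 28 counts per sample in unstimulated to 2 to 9 in stimulated cells, with a log2 fold change of −1.20 (SE 0.639, adjusted p = 0.122). Without replicate 1 of the unstimulated group with PGE2 the *Il9r* value was −1.55 with an adjusted p of 0.0218.

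PGE2 shifted several receptor genes in unstimulated cells, all by less than 2-fold. Of 8 genes tested, *Il7r* and *Il4ra* rose and *Il2ra* and *Il2rg* fell at an adjusted p below 0.05. Of all 14505 genes tested, 12.9% were higher and 15.5% lower. No receptor gene was a DEG, against 3.38% of all genes. DESeq2 and limma also gave 0 receptor DEGs. Before adjustment 5 of the 8 were below 0.05 in edgeR, against 5640 of all 14505 genes. Blocking on the replicate number let 6 of the 8 receptor genes pass, against 6938 of all 14505 genes. *Il2rb* (adjusted p = 0.0126) and *Il15ra* (adjusted p = 0.0427) joined the 4. DESeq2 let 5 pass, with *Il2rb* at an adjusted p of 0.0379, and called 4405 genes in all. Samples of the same number deviated together in this comparison. The groups did not overlap for 3 of the receptor genes (*Il2rb*, *Il2rg* and *Il7r*) and for 28.9% of all genes. The median log2 fold change was 0.02 over the receptor genes and 0.00 over all genes.

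*Il2ra* stood at 272, 277, 296 and 388 CPM with PGE2, against 362, 431, 419.9 and 631 CPM without it. The highest treated sample lay above the lowest untreated one, but within each replicate number the treated sample was lower, by 0.41 to 0.70 on the log2 scale. The log2 fold change was −0.56 (SE 0.167, adjusted p = 0.0272). *Il2rg*, the chain shared by the whole family, stood at 266, 263, 258 and 247 CPM with PGE2, below every untreated sample (285 to 303 CPM). It fell by 0.18 on the log2 scale (SE 0.0518, adjusted p = 0.0207), and the 4 differences within a replicate number ran from −0.22 to −0.18.

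*Il7r* stood at 190.4, 194, 199 and 187 CPM with PGE2, above every untreated sample (156 to 176 CPM), and rose by 0.24 on the log2 scale (SE 0.0565, adjusted p = 0.00756). *Il4ra* stood at 479, 385, 376 and 326 CPM with PGE2, against 355, 313, 321 and 262 CPM, and rose by 0.34 (SE 0.111, adjusted p = 0.0385) with overlapping groups. In limma the adjusted p of *Il4ra* was 0.0776 on log2(FPKM + 1) and 0.0783 on log2(FPKM + 0.1). *Il7r* and *Il4ra* were higher with PGE2 in 4 of 4 replicate numbers. *Il2rb* (log2 fold change 0.13, SE 0.0558, adjusted p = 0.106), *Il21r* (−0.08, SE 0.0776, adjusted p = 0.464), *Il15ra* (−0.21, SE 0.150, adjusted p = 0.338) and *Il9r* (0.30, SE 0.595, adjusted p = 0.760) did not pass. The 95% interval of the *Il9r* value, −1.01 to 1.61, leaves room for a 2-fold change either way.

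With 4 samples a group, 3 of these 4 calls were lost in the fit without the block when certain single samples were left out. With the block and all samples the adjusted p was 3.07e-08 for *Il2ra*, 0.000322 for *Il2rg*, 1.44e-06 for *Il4ra* and 7.82e-05 for *Il7r*. Without the block, the adjusted p of *Il2ra* rose to between 0.0501 and 0.0854 when replicate 2 or 4 of the untreated or replicate 1, 2 or 3 of the PGE2 group was left out, and without replicate 4 of the untreated group the log2 fold change was −0.37. That of *Il2rg* rose to between 0.0526 and 0.109 without replicate 2 or 3 of the untreated or replicate 2 or 4 of the PGE2 group. That of *Il4ra* rose to between 0.0662 and 0.0937 without replicate 2, 3 or 4 of the untreated or replicate 1, 2 or 3 of the PGE2 group. The call of *Il7r* stayed under each of the 8 omissions (adjusted p up to 0.0279).

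In stimulated cells PGE2 raised *Il7r*. It stood at 76.2, 86.5, 119 and 131 CPM with PGE2, each above the untreated samples at 45.4, 49.8, 59.9 and 75.3 CPM. The log2 fold change was 0.85 (SE 0.199, edgeR adjusted p = 0.0268), a 1.80-fold rise, and within replicate numbers the difference was 0.75, 0.80, 0.98 and 0.79. The adjusted p lay between 0.0600 and 0.0901 without replicate 1, 2 or 3 of the untreated or replicate 3 or 4 of the PGE2 group. With the replicate block it was 6.87e-07. Without replicate 4 of the untreated group the log2 fold change was 1.00, the size of a DEG.

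*Il7r* was the only one of 7 tested receptor genes past an adjusted p of 0.05 without the block, against 6.04% of all 13922 genes that were higher and 3.80% that were lower. No receptor gene was a DEG in edgeR, DESeq2 or limma, against 1.75% of all genes in edgeR. In edgeR 2 of the 7 had an unadjusted p below 0.05, against 3761 of all 13922 genes. The groups did not overlap for *Il7r* and *Il2rb*, and for 17.9% of all genes. The median log2 fold change was −0.08 over the receptor genes and −0.01 over all genes. With the replicate block 3 of the 7 receptor genes passed, against 5544 of all 13922 genes. They were *Il7r*, *Il2rb* (adjusted p = 0.00242) and *Il4ra* (adjusted p = 0.0391).

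*Il2rb* stood at 1011, 1004, 1043 and 1014 CPM with PGE2 and at 742, 793, 885 and 931 CPM without. Its log2 fold change of 0.29 (SE 0.0822) narrowly missed the threshold in the main edgeR fit (adjusted p = 0.0543). It passed in 6 of 17 alternatives. Among these were DESeq2 (adjusted p = 0.0104), the replicate block (0.00242) and 1 fit of all 16 samples (0.0115). The others were limma after its filter on log2(FPKM + 1) (0.0415) or log2(FPKM + 0.1) (0.0406), and the omission of replicate 4 of the untreated group (0.0327). *Il4ra* stood at 355, 334, 312 and 263 CPM with PGE2 and at 285, 272, 287 and 270.2 CPM without, with a log2 fold change of 0.19 (SE 0.0905, adjusted p = 0.211). It was higher with PGE2 in 3 of 4 replicate numbers.

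*Il2ra* under stimulation differed most between PGE2 and untreated samples in replicate 4. It stood at 1531, 1577, 1358 and 1057 CPM with PGE2 and at 1504, 1572, 1548 and 1691 CPM without, so that the differences within replicate numbers were 0.03, 0.00, −0.19 and −0.68 on the log2 scale. The log2 fold change was −0.19 (SE 0.118, adjusted p = 0.325, 95% interval −0.45 to 0.07), and −0.08 without replicate 4 of the PGE2 group. *Il2rg* stood at 362, 369.7, 367 and 329.9 CPM with PGE2 and at 418, 390.3, 389 and 339 CPM without. It was lower in 4 of 4 replicate numbers, but its log2 fold change of −0.10 (SE 0.0759, adjusted p = 0.423, 95% interval −0.27 to 0.07) did not pass. *Il15ra* (−0.11, SE 0.128, adjusted p = 0.606) and *Il21r* (−0.08, SE 0.118, adjusted p = 0.685) did not pass either, and *Il9r*, at 1 to 9 counts per sample, was below the filter.

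**Figure D3:**
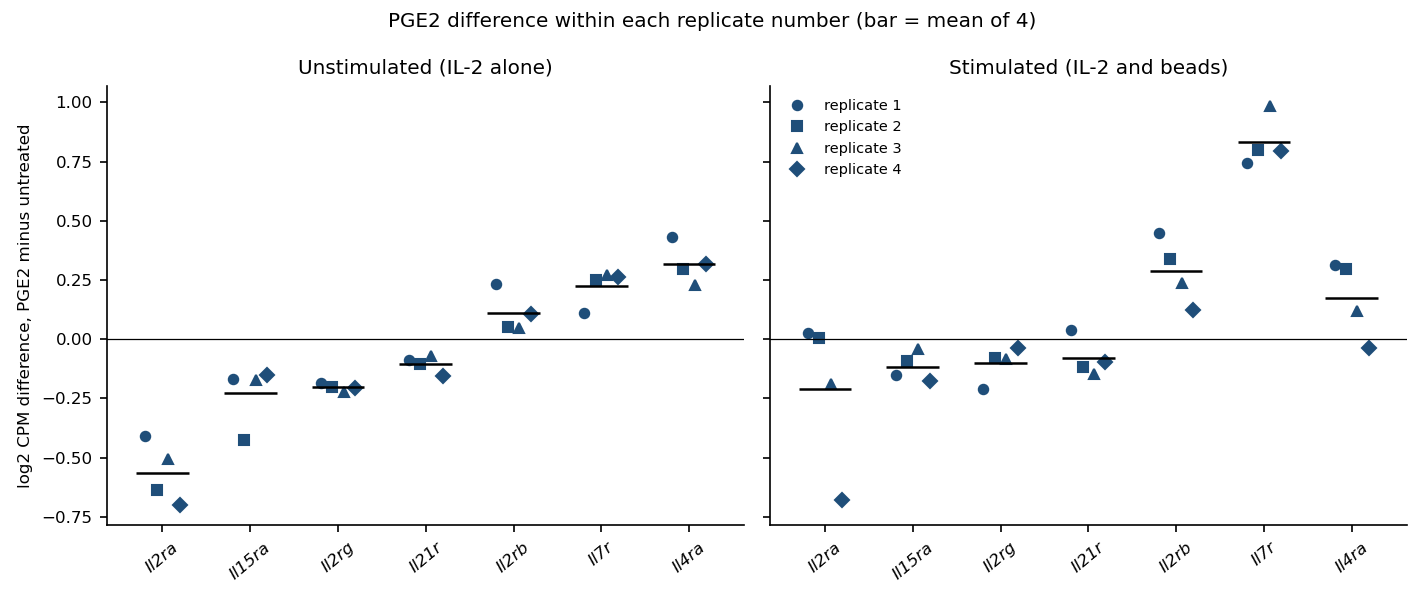
Difference in log2 CPM between the PGE2 and the untreated sample of each replicate number, for unstimulated (left) and stimulated cells (right), with bars at the mean of 4. *Il7r* is above 0 in all 4 numbers in both states, *Il2rg* below 0 in all, and *Il2ra* in stimulated cells spreads from 0.03 to −0.68.

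Whether PGE2 acted differently on a receptor gene in stimulated and unstimulated cells was tested as an interaction over all 16 samples. None of the 8 receptor genes passed with edgeR, DESeq2 or limma, against 0.749% of all 15096 genes in edgeR. Against 1415 of all genes in edgeR, 1 receptor gene had an unadjusted p below 0.05. That was *Il7r*, with an interaction of 0.62 on the log2 scale (SE 0.215, unadjusted p = 0.0104, adjusted p = 0.283 in edgeR, 95% interval 0.16 to 1.07). For *Il2ra* it was 0.39 (SE 0.219, adjusted p = 0.668), for *Il2rb* 0.17 (SE 0.0971, adjusted p = 0.672) and for *Il2rg* 0.10 (SE 0.0927, adjusted p = 0.870). The difference between the PGE2 effects on *Il2ra* in the presence and absence of beads was thus not shown. The 4 pairwise comparisons share samples with each other, and their values for a gene are set side by side only.

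**Figure D4:**
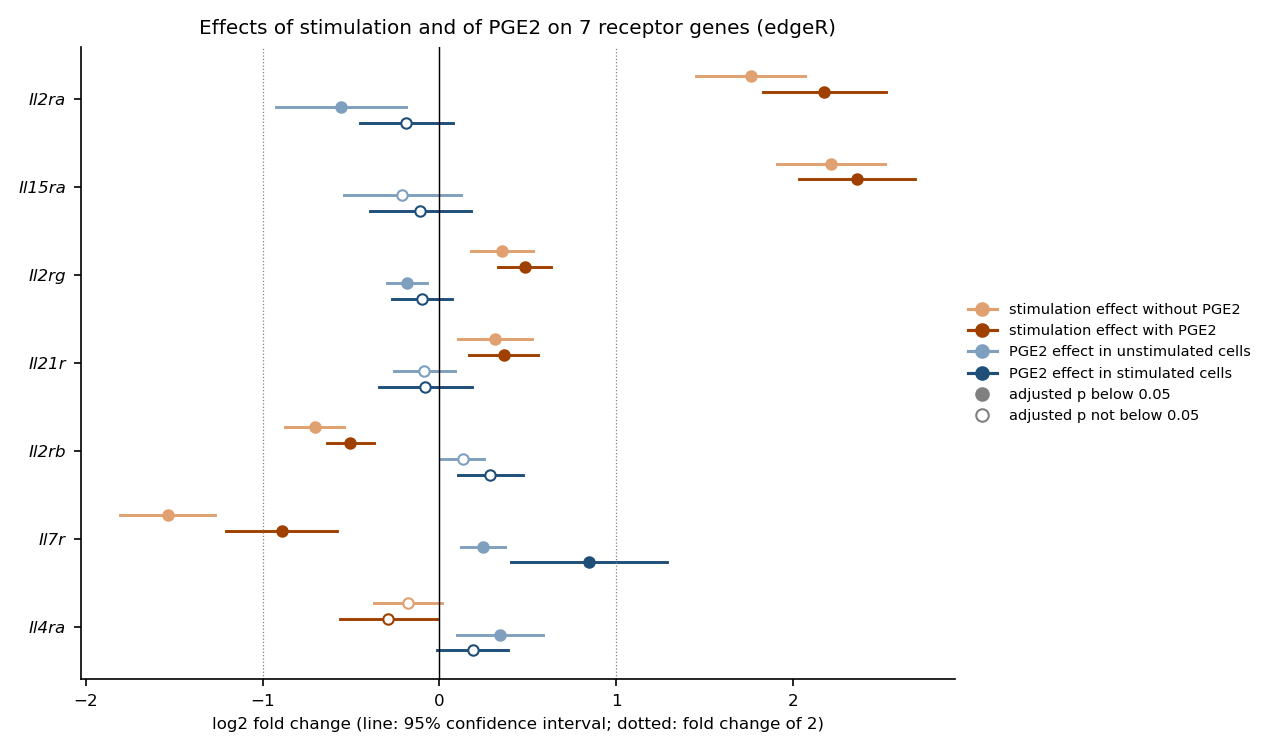
Log2 fold changes (points) with 95% confidence intervals (lines) of 7 receptor genes in the 4 pairwise comparisons, filled where the edgeR adjusted p was below 0.05. The stimulation effects on *Il2ra* and *Il15ra* lie beyond 1.76, and every PGE2 effect lies between −0.56 and 0.85.

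Other genes of the pathway were counted from a list of 48, of which 40 or 41 were tested. In unstimulated cells PGE2 raised 11 and lowered 10 of 41, and 4 were DEGs, against 12.9% higher, 15.5% lower and 3.38% DEGs among all genes. *Il2*, which encodes the cytokine itself, was at 0.158 ± 0.204 CPM with and 1.55 ± 1.300 CPM without PGE2 (log2 fold change −3.18, SE 0.761, adjusted p = 0.00903), from 1 to 18 and 10 to 112 counts per sample. *Irs2*, an adaptor of insulin and IL-4 signalling, rose by 1.05 (SE 0.0789, adjusted p = 6.29e-06) and *Gab2*, an adaptor that recruits PI3K, by 1.41 (SE 0.231, adjusted p = 0.000903). *Eomes*, a T-box factor known to act on *Il2rb*, fell by 1.13 (SE 0.242, adjusted p = 0.00495).

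By role, 2 of 5 STAT genes rose in unstimulated cells with PGE2 (*Stat3* by 0.95, *Stat5b* by 0.41), 2 of 4 kinase genes rose (*Jak2*, *Tyk2*), and 5 of 7 response genes fell (*Myc*, *Ccnd2*, *Pim2*, *Bcl2*, *Ccnd3*). These groups hold 4 to 7 genes each, against 12.9% of all genes that rose and 15.5% that fell. *Myc*, a growth factor target, had the largest of these falls, by 0.97 (SE 0.140, adjusted p = 0.000422). Of 7 feedback genes, *Socs1* and *Socs3* rose and *Socs2* and *Ptpn6* fell. *Ptpn6*, which encodes the phosphatase SHP-1, fell by 0.89 (SE 0.0540, adjusted p = 2.98e-06).

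In stimulated cells PGE2 raised 5 and lowered 2 of 40 pathway genes, and 2 were DEGs, against 6.04% higher, 3.80% lower and 1.75% DEGs among all genes. *Il2* stood at 26.0 ± 16.6 CPM with and 101 ± 47.3 CPM without PGE2 (log2 fold change −1.95, SE 0.474, adjusted p = 0.0305). *Irs2* rose by 1.08 (SE 0.144, adjusted p = 0.00178). The other rises were *Stat3*, *Jak1*, *Gfi1* and *Ets1*, and the other fall was *Socs2*, a feedback inhibitor induced by STAT5, by 0.62 (SE 0.0972, adjusted p = 0.00386). None of the 7 response genes passed, and 2 of them had an unadjusted p below 0.05 in edgeR, against 3761 of all 13922 genes. The interaction passed for 1 of 41 pathway genes, *Ptpn6* (0.66 on the log2 scale, adjusted p = 0.00382), against 0.749% of all genes.

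On stimulation without PGE2, 23 of 40 pathway genes were higher and 11 lower, against 31.7% and 34.8% of all genes. With PGE2, 22 of 41 were higher and 11 lower, against 32.5% and 31.7% of all genes. Without PGE2, *Stat5a* rose by 2.53 (SE 0.119, adjusted p = 1.27e-08) and *Jak2* by 1.46, while *Jak1* fell by 1.07. The feedback gene *Cish*, a STAT5 target, rose by 2.83 and *Socs1* by 1.88. *Il2* rose by 5.95 (SE 0.477, adjusted p = 3.12e-07). *Foxo1*, which is known to maintain *Il7r* transcription, fell by 0.80 (SE 0.0718, adjusted p = 7.82e-07), and *Gfi1*, a known repressor of *Il7r*, rose by 0.52. *Gfi1* also rose with PGE2, by 0.57 in unstimulated and 0.51 in stimulated cells, where *Il7r* rose as well. *Eomes* rose by 2.97 on stimulation without PGE2, where *Il2rb* fell. Whether these factors acted on the receptor genes here was not tested.

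The genes most like each receptor gene were sought among 8862 genes that averaged 10 CPM or more, by Pearson correlation of log2 CPM over the 16 samples. These values describe likeness over samples that share groups, replicate numbers and depth. *Il2ra* was closest to *Lif* (r = 0.996) and *Snhg15* (0.995), *Il15ra* to *Ubqln4* (0.994) and *Stat5a* (0.994), and *Il7r* to *Fbxo32* (0.992) and *Fcho2* (0.992). *Il2rb* was closest to *Klhl24* (0.991) and *Gpr146* (0.990), *Il2rg* to *Tmem147* (0.987) and *Ssbp4* (0.985), and *Il21r* to *Unc13a* (0.973) and *Zfp692* (0.937). *Il4ra* had the loosest matches, *Socs3* (0.928) and *Rnf111* (0.913). With the group means removed, the values ran from 0.787 (*Il15ra* and *Ubqln4*) to 0.960 (*Il2ra* and *Lif*).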

How the data were processed

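RNA was poly(A)-selected and libraries were made with the NEBNext Ultra kit. Per the labels, the authors used HISAT2 2.0.5, featureCounts 1.5.0-p3 and DESeq2 1.20.0 on GRCm38. The authors deposited whole-number counts per gene without normalization, and FPKM values that they derived from the counts and gene lengths. The options of the counting step are not given in the sources used here. Coordinates in the deposited count table equal those of GENCODE M21 for all 8 receptor genes.

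Counts were tested with edgeR 4.0.16 in R 4.3.3, after filterByExpr at a minimum count of 10 and TMM scaling. The two-sided quasi-likelihood test (glmQLFit, glmQLFTest) was used, and Benjamini-Hochberg adjustment ran over all genes tested and not over the receptor genes alone. Pairwise fits held the 8 samples compared, and the interaction fit all 16. The DEG thresholds were 0.05 for the adjusted p and 2 for the fold change. CPM used TMM factors of all 16 samples (0.880 to 1.09), and log2 CPM a prior count of 2. Log2 fold changes and log2 differences were computed here from the deposited counts, and the standard error (SE) of a fold change is its size divided by the square root of the F statistic.

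The alternatives were DESeq2 1.42.0, limma 3.58.1 on log2(FPKM + 1) or log2(FPKM + 0.1) where the mean FPKM reached 1, limma on log2(FPKM + 1) for every gene, RLE and upper-quartile factors, no filter on counts, a replicate block, 1 joint fit of the 16 samples and the omission of each replicate in turn. The edgeR steps were tested on simulated data.

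What samples of the same replicate number share is not given in the labels. Their deviations from the group means correlated at 0.193 to 0.441 for PGE2 in stimulated cells, 0.138 to 0.429 for PGE2 in unstimulated cells and 0.112 to 0.352 for stimulation without PGE2, over 0.1 in every pair, so these numbers were taken to pair the samples. For stimulation with PGE2 they correlated at 0.0448 to 0.269 and were not. Samples of different numbers reached 0.259 and 0.0969 for PGE2 in stimulated and unstimulated cells. They reached 0.134 and 0.164 for stimulation without and with PGE2. For PGE2 in stimulated cells, 6 of 8 samples correlated best with their own number. This was 8 of 8 for PGE2 in unstimulated cells and for stimulation without PGE2. The main fits did not use the pairs, and the fits with the replicate block did. The labels do not say that replicates came from separate mice or cultures, so p-values measure the spread between these samples only. Replicates differed beyond counting noise (chi-square per degree of freedom, averaged over genes, 7.81 to 51.3), and that spread limits the precision. For *Il9r* the low counts limit the precision as well.

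The receptor genes, the pathway list of 48 genes and the marker lists were chosen with earlier results of these data known. Named were the 8 receptor genes, for each of them that passed the filter over 16 samples with a mean of at least 1 CPM the 2 most correlated genes of at least 10 CPM, and of the pathway list *Il2* and the DEGs of either PGE2 comparison. Other pathway genes were named after their values were seen. Drawing used matplotlib 3.10.9 in Python 3.11.15.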

Additional observations from a re-analysis of the deposited data

Results flagged for a closer look

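Of 32 sets of 4 samples (8 receptor genes in 4 groups), 2 held a sample that stood apart from the others. Chance does this in about 1 in 20 groups. In unstimulated cells with PGE2, *Il2rb* stood at 1592 CPM in replicate 1 and at 1409.9 to 1422 CPM in the other 3, a gap of 0.933 of the range. In unstimulated untreated cells, *Il2rg* stood at 285 CPM in replicate 4 and at 301 to 303 CPM in the other 3, a gap of 0.918 of the range. The cause was not tested.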

How the results depend on the processing

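Over all alternatives, values of single receptor genes kept their direction and side of the threshold in 637 cases, lost a call in 29, gained one in 22 and turned in sign in 8. The number past an adjusted p of 0.05 for PGE2 in stimulated cells (1) was 2 with DESeq2, limma on log2(FPKM + 1), limma on log2(FPKM + 0.1) or 1 fit of all 16 samples, 0 with limma on log2(FPKM + 1) without filter, and 0 to 2 with 1 replicate left out; with the replicate block it was 3. Among all genes, 1370 passed in that comparison in the main fit, 2066 with DESeq2, 1038 with limma on log2(FPKM + 1) and 5544 with the block. The number of receptor DEGs there ran from 0 to 1 with 1 replicate left out. For PGE2 in unstimulated cells (4 genes) it was 5 with DESeq2, 6 with the block, 3 with limma after the filter at either pseudocount, without filter on low counts or in 1 fit of all 16 samples, 2 with limma without filter (adjusted p = 0.113 for *Il2ra* and 0.184 for *Il4ra*) and 1 to 4 with 1 replicate left out. For PGE2 in unstimulated cells 4122 of all genes passed in the main fit, 4405 with DESeq2, 3456 with limma on log2(FPKM + 1) and 6938 with the block. Without filter on low counts, *Il2rg* in unstimulated cells missed the threshold (adjusted p = 0.0581), and in the fit of 16 samples *Il7r* did (adjusted p = 0.321). No receptor gene changed direction under another scaling. Upper-quartile factors moved the median of all genes to −0.13 for both stimulation effects. The sign of *Il9r* for PGE2 in unstimulated cells turned without replicate 4 of the PGE2 group (-0.044, with omissions running from -0.044 to 0.90), and the interaction of *Il21r* turned without filter (-0.014) and ran from -0.080 to 0.085 with 1 replicate left out. For stimulation with PGE2, where the numbers were not taken as pairs (5 of 8 samples correlated best with their own number), the replicate block moved the adjusted p of *Il4ra* to 0.00368 and of *Il9r* to 0.0422. The block changed no call of a receptor gene besides those given. The causes were not tested. For stimulation without PGE2, DESeq2, edgeR without filter and 1 fit of all 16 samples tested and called *Il9r*, which gave 4 receptor DEGs in place of 3. *Il9r* rests on 1 to 28 counts per sample.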
